A study of Mus musculus with 6 samples.

Results

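Primary liver tumours of mice with hepatocyte deletion of KAP1 were compared with control liver, and each difference was sorted by whether it was already present in the KAP1-deleted liver outside the tumour. The comparison used 4 of the 6 RNA-sequencing libraries of the study, taken by their labels: 2 primary tumours and 2 livers with the AlbCre transgene alone. The other 2 libraries, KAP1-deleted livers, were used to sort the differences. Control livers carried the transgene labelled TgAlbCre, and both the KAP1-deleted livers and the tumours carried TgAlbCreKap1lox. All mice received a high-fat diet (HFD) for 27 weeks and were killed at 35 weeks of age, so diet, age and the Cre transgene were shared by the 3 groups. Cre driven by the albumin promoter acts mainly in hepatocytes. RNA from whole tissue does not show the state of Trim28 in the other cells of the liver and of the tumour. The sample names carry mouse codes, from which tumour 1 and KAP1-deleted liver 1 came from 1 mouse, tumour 2 and KAP1-deleted liver 2 from another, and the control livers from 2 further mice. No tumour of a mouse with intact Trim28 was among the libraries, so tumour state and KAP1 loss cannot be told apart in the comparison with control liver alone.

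KAP1, encoded by Trim28, is a co-repressor guided to DNA by KRAB zinc finger proteins, and there it recruits enzymes that place repressive chromatin marks. In the liver lobule, hepatocytes near the portal vein make urea and glucose, whereas those around the central vein make glutamine under the control of Wnt/beta-catenin signalling. Liver tumours with active beta-catenin are known for strong expression of the pericentral genes and loss of the periportal ones.

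Genes held 39723997 to 62178752 counts per library. Levels are given as CPM, read counts scaled to a common total, with library sizes scaled by TMM, in order of replicates 1 and 2 of each group. Fold changes are given in log2 units with ± their standard error (SE), and a gene was called where edgeR's quasi-likelihood test gave a Benjamini-Hochberg adjusted p under 0.05 over 17558 genes tested. With 2 libraries per group, 3 residual degrees of freedom carry all 3 comparisons, and the p-values measure only the spread between these samples. Both tumours lay apart from all 4 livers on a principal component with 60.6% of the variance of log2 CPM. Trim28 itself was at 32.5 and 35.9 CPM in the control livers, 5.06 and 6.02 in the KAP1-deleted livers and 5.22 and 4.59 in the tumours. Its tumour level was below both controls and close to the KAP1-deleted livers, with a log2 fold change of -2.80 ± 0.19 (adjusted p = 0.000433) from control to tumour, of -2.63 ± 0.19 (adjusted p = 0.00393) from control to KAP1-deleted liver and of -0.18 ± 0.19 (adjusted p = 0.573) from KAP1-deleted liver to tumour. All 8 hepatocyte markers on the list were detected in every library, with a summed level of 81530.5 and 90714 CPM in the control livers and 23166 and 42454 CPM in the tumours. The share of reads in no gene was 25.2% and 18.0% in the control livers and 35.0% and 31.3% in the tumours, and its part in the results was not tested. In RNA from whole tissue, fewer cells of a type and less RNA per cell cannot be told apart.

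Between tumour and control liver, 2443 genes were called, 13.9% of those tested, with 1080 (6.15%) higher and 1363 (7.76%) lower in tumour. Over all genes the median log2 fold change was -0.02. Between KAP1-deleted and control liver 59 genes were called (0.336%), 42 higher (0.239%) and 17 lower (0.0968%). Between tumour and KAP1-deleted liver 2007 were called (11.4%), 842 higher (4.80%) and 1165 lower (6.64%) in tumour. These comparisons share libraries, so their values are set side by side and no correlation between them is given. A tumour difference was counted as already present where the gene was also called in the same direction between KAP1-deleted and control liver. It was counted as tumour only where the gene was called in the same direction between tumour and KAP1-deleted liver and not called between KAP1-deleted and control liver. Genes that met neither condition are undecided. Tumour and control libraries did not overlap in 56.4% of all genes tested, so a lack of overlap alone sets few genes apart.

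Of the 2443 genes, 57 (2.33%) were already present, 41 of them higher (0.234% of those tested) and 16 lower (0.0911%). Another 1580 (64.7%) were tumour only, 685 higher (3.90%) and 895 lower (5.10%), and 806 (33.0%) were undecided, 354 higher (2.02%) and 452 lower (2.57%). With upper-quartile scaling in place of TMM the tumour-only class held 772 higher and 683 lower, which turns the balance between rises and falls. For each gene the log2 fold change of KAP1-deleted liver was set as a percent of that of tumour, both against the same controls, as a description of how far the change had gone outside the tumour. The median was 91.7% in the already present class, 34.8% in the undecided class and 0.614% in the tumour-only class. The classes were sorted by calls on these same differences, so this order follows from their definition and is no separate result. Among tumour-only genes, 754 lay under 0%, 690 between 0% and 25%, 121 between 25% and 50%, and 15 at 50% or more. Within the already present class, 42 genes were held in tumour, with no called difference between tumour and KAP1-deleted liver, 11 went further and 4 partly returned towards control. All 57 genes of the class differed at least 2-fold, against 1282 of the 1580 tumour-only genes. The smallest log2 fold change called was 1.18 in size between KAP1-deleted and control liver, against 0.589 between tumour and control liver. The already present class requires a call in the former, so its definition favours larger changes.

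The class sizes depended on single libraries. The number of genes called between tumour and control liver was 1429 without control liver 2, 1103 without tumour 1 and 1399 without tumour 2. The 59 genes of KAP1-deleted liver became 34 without control liver 1, 30 without tumour 1 and 31 without tumour 2, and the 2007 between tumour and KAP1-deleted liver became 834 and 640 without KAP1-deleted liver 1 or 2, and 737 and 1184 without tumour 1 or 2. The already present class held 31 genes without control liver 1, 29 without tumour 1 and 27 without tumour 2. The tumour-only class held 699 genes without KAP1-deleted liver 1, 569 without KAP1-deleted liver 2, 636 without tumour 1 and 974 without tumour 2. The undecided class held 307 genes without control liver 2, 1293 without KAP1-deleted liver 2, 438 without tumour 1 and 398 without tumour 2. With the mouse as a replicate block, the comparison of tumour with KAP1-deleted liver called 4476 genes, on 1 residual degree of freedom.

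**Figure D1:**
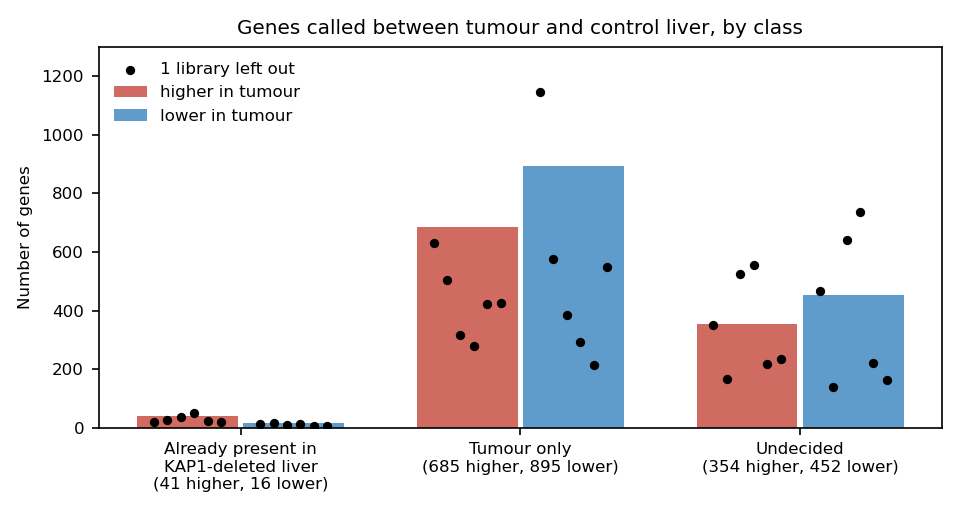
Number of genes called between tumour and control liver (vertical axis) in each class, with higher and lower genes as separate bars starting at 0; points give the same count with 1 of the 6 libraries left out. The tumour-only bars (685 and 895) stand above the already present bars (41 and 16), and most points of the tumour-only class lie below their bar.

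The genes already raised in KAP1-deleted liver included germ cell genes that liver does not normally express. Fbxw16 and Fbxw19 belong to a cluster of F-box and WD40 domain genes on chromosome 9 that are expressed mainly in oocytes. Fbxw19 was at 0 and 0 CPM in the control livers, 9.29 and 4.11 in the KAP1-deleted livers and 14.5 and 15.6 in the tumours, and Fbxw16 at 0 and 0 CPM in the control livers, 4.22 and 2.37 in the KAP1-deleted livers and 5.90 and 7.46 in the tumours. Both had 0 counts in both controls and counts in all 4 other libraries, so the groups did not overlap. Against the limit of 3 counts over the control group, Fbxw19 was at least 469-fold higher in tumour (adjusted p = 0.000832) and at least 209-fold higher in KAP1-deleted liver (adjusted p = 0.0105). The second call was lost without control liver 1 (0.0702) or control liver 2 (0.0799). Fbxw16 was at least 208-fold higher in tumour (adjusted p = 0.000676) and at least 103-fold higher in KAP1-deleted liver (adjusted p = 0.00988), and both calls held with any 1 library left out. Neither was called between tumour and KAP1-deleted liver (adjusted p = 0.0937 and 0.0953).

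Another gene of the cluster, Fbxw15, followed another course. It was at 0.0577 and 0.0509 CPM in the control livers, 0.0454 and 0.0847 in the KAP1-deleted livers and 1.27 and 0.819 in the tumours. Control and KAP1-deleted livers overlapped near 0, and both tumours were higher. Fbxw15 rose in tumour by a log2 fold change of 4.23 ± 0.55 against control (adjusted p = 0.00343) and of 3.95 ± 0.53 against KAP1-deleted liver (adjusted p = 0.00529), which places it in the tumour-only class. The fourth tested member of the list, Fbxw17, was at 1.62 and 1.60 CPM in the control livers, 1.45 and 1.31 in the KAP1-deleted livers and 1.35 and 1.07 in the tumours and was not called (adjusted p = 0.391). Part of the reads of these genes could be shared: 59.3% of the 31-base words of Fbxw16, 84.4% of Fbxw19 and 68.2% of Fbxw15 occur in no other gene of the reference transcripts.

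The promoter windows of the 3 raised genes are shown because the genes are near copies that were raised in different groups. Each window runs from 250 bases before to 50 bases after the annotated start, from RefSeq on build GRCm38.p6, and capitals mark the longest stretch identical in all 3, which is 29 bases long. The windows lie at chr9:109449091-109449390 (minus strand), chr9:109495805-109496104 (minus strand) and chr9:109568213-109568512 (minus strand).
Fbxw16: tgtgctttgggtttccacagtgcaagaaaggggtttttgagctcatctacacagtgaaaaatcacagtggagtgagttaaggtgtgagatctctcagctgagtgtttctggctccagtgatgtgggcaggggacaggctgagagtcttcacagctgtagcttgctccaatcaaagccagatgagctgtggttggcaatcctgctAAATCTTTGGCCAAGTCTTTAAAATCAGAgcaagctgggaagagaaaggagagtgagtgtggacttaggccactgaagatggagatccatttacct
Fbxw19: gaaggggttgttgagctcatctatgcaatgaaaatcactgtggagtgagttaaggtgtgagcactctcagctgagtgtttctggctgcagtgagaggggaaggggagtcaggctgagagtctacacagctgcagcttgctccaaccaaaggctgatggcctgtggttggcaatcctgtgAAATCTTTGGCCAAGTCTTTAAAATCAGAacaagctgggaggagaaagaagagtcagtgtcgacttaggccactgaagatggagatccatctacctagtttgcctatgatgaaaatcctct
Fbxw15: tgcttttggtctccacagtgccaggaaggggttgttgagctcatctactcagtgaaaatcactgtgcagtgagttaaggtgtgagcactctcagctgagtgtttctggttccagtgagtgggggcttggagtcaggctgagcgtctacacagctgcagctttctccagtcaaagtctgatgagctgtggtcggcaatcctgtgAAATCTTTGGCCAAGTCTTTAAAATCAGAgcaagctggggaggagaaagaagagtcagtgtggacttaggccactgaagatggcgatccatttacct
The windows start at slightly different places of the shared sequence. Where the alignment pairs bases, Fbxw15 and Fbxw16 were identical at 90.2% of 297 positions, Fbxw15 and Fbxw19 at 91.6% of 275 and Fbxw16 and Fbxw19 at 90.1% of 273.

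Catsperg2 encodes an accessory subunit of the calcium channel of sperm. It was at 0.0577 and 0 CPM in the control livers, 11.6 and 9.11 in the KAP1-deleted livers and 4.96 and 3.66 in the tumours. All 4 libraries with deleted Trim28 were above both controls, and the tumours were below the KAP1-deleted livers. The ratio of counts was 206 (95% counting interval 56.8 to 1708) for tumour over control (adjusted p = 0.000711) and 482 (95% counting interval 133 to 3989) for KAP1-deleted over control liver (adjusted p = 0.00393), while tumour and KAP1-deleted liver were not called different (adjusted p = 0.0515). Its near copy Catsperg1 was at 0.491 and 0.238 CPM in the control livers, 2.95 and 2.31 in the KAP1-deleted livers and 1.44 and 1.14 in the tumours and rose in both, with a log2 fold change of 1.88 ± 0.41 in tumour (adjusted p = 0.0235) and 2.90 ± 0.41 in KAP1-deleted liver (adjusted p = 0.0419). The tumour call was lost without control liver 2 (0.0950), tumour 1 (0.0964) or tumour 2 (0.0520), and the other without control liver 2 (0.0819), KAP1-deleted liver 1 (0.0648), tumour 1 (0.0848) or tumour 2 (0.0821). Only 43.7% of the 31-base words of Catsperg2 and 44.6% of those of Catsperg1 occur in no other gene, so the reads of the pair could be shared. Of the 4 tested sperm channel genes, these 2 were called.

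Mas1, a receptor for angiotensin-(1-7) next to the imprinted Igf2r gene, was at 0.115 and 0.390 CPM in the control livers, 5.61 and 10.3 in the KAP1-deleted livers and 10.7 and 10.2 in the tumours. The controls did not reach the level of any of the other libraries, and the tumours overlapped the KAP1-deleted range. Mas1 rose by a log2 fold change of 5.23 ± 0.49 in tumour (adjusted p = 0.00110) and 4.84 ± 0.49 in KAP1-deleted liver (adjusted p = 0.0117), so 92.4% of the tumour change was present outside the tumour. Cox6b2, the testis form of a cytochrome c oxidase subunit, was at 0.0289 and 0.0679 CPM in the control livers, 2.41 and 1.36 in the KAP1-deleted livers and 2.04 and 1.26 in the tumours. It rose by 4.91 ± 0.59 log2 units in tumour (adjusted p = 0.00264) and 5.10 ± 0.59 in KAP1-deleted liver (adjusted p = 0.0217), the second call being lost without control liver 1 (0.0579) or control liver 2 (0.0514). Trim24, a relative of Trim28 in the TIF1 family and a suppressor of liver tumours in mice, was at 56.2 and 37.5 CPM in the control livers, 170.4 and 145 in the KAP1-deleted livers and 197 and 148 in the tumours. It rose by 1.88 ± 0.26 log2 units in tumour (adjusted p = 0.00433) and by 1.75 ± 0.26 in KAP1-deleted liver (adjusted p = 0.0474), and the second call was lost without control liver 2 (0.0819), KAP1-deleted liver 1 (0.0631), tumour 1 (0.0848) or tumour 2 (0.0833). The remaining tested member, Trim33, was at 40.7 and 31.5 CPM in the control livers, 44.1 and 37.8 in the KAP1-deleted livers and 48.3 and 46.6 in the tumours and was not called (adjusted p = 0.203 for tumour against control).

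**Figure D2:**
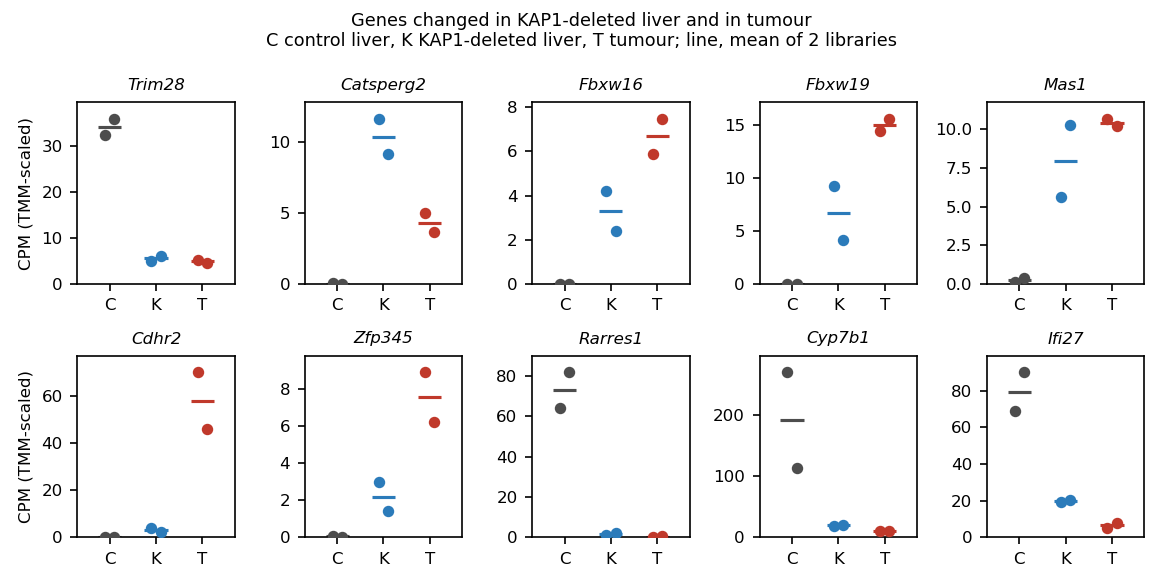
Level of 10 genes (CPM, TMM-scaled, linear axis from 0) in control liver (C), KAP1-deleted liver (K) and tumour (T); points are libraries and lines the mean of 2. Catsperg2, Fbxw16, Fbxw19 and Mas1 are near 0 in control liver and raised in both other groups, Cdhr2 and Zfp345 are highest in tumour, and Rarres1, Cyp7b1 and Ifi27 are lowest in tumour.

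Numbered zinc finger genes made up 12 of the 57 changes already present. Of 330 tested genes named Zfp and a number, 38 rose and 9 fell between control liver and tumour, against 6.15% and 7.76% of all genes, and the median log2 fold change was 0.17. Without control liver 2 or tumour 1 22 of the 330 were called higher, and 3 to 5 were called lower without control liver 1 or 2, KAP1-deleted liver 2 or tumour 1 or 2. In KAP1-deleted liver 12 rose and none fell at the same threshold, 43 of the 330 had an unadjusted p under 0.05, and the rises numbered 22 by DESeq2 and 4 by limma-voom, with 0 falls by either tool. All 12 rose in tumour too and make up the list's share of the already present class, while 7 were tumour only and 28 undecided. With 1 control or tumour library left out, 3 to 5 of the 330 were called higher in KAP1-deleted liver. Many of these genes encode KRAB zinc finger proteins, the family through which KAP1 reaches DNA.

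Zfp987 was at 0.751 and 0.509 CPM in the control livers, 10.2 and 6.23 in the KAP1-deleted livers and 14.5 and 12.6 in the tumours. The controls did not overlap either other group, and the log2 fold change was 4.45 ± 0.34 in tumour (adjusted p = 0.000579) and 3.74 ± 0.34 in KAP1-deleted liver (adjusted p = 0.00988), which held with any 1 library left out. Zfp992 was at 16.1 and 14.9 CPM in the control livers, 145 and 91.0 in the KAP1-deleted livers and 166 and 118 in the tumours. It rose by 3.20 ± 0.29 log2 units in tumour (adjusted p = 0.000948) and by 2.93 ± 0.29 in KAP1-deleted liver (adjusted p = 0.0105), the second call being lost without control liver 1 (0.0615) or control liver 2 (0.0659). Zfp981 and Zfp988 rose in tumour by 3.52 ± 0.32 (adjusted p = 0.000948) and 4.73 ± 0.48 (adjusted p = 0.00139), and in KAP1-deleted liver by 2.91 ± 0.31 and 3.65 ± 0.48. Their KAP1-deleted calls were lost without control liver 1 (0.0563) for Zfp981 and without control liver 1 (0.130) or control liver 2 (0.176) for Zfp988. Zfp345 was the 1 zinc finger gene of the class that went further. It was at 0.0866 and 0.0170 CPM in the control livers, 2.97 and 1.44 in the KAP1-deleted livers and 8.91 and 6.25 in the tumours, with log2 fold changes of 7.36 ± 0.64 in tumour (adjusted p = 0.000850), 5.58 ± 0.66 in KAP1-deleted liver (adjusted p = 0.0217) and 1.78 ± 0.41 from KAP1-deleted liver to tumour (adjusted p = 0.0321). The call in KAP1-deleted liver was lost without control liver 1 (0.0621), control liver 2 (0.0970), tumour 1 (0.0610) or tumour 2 (0.0598), and the further rise without KAP1-deleted liver 2 (0.165), tumour 1 (0.150) or tumour 2 (0.0608). Reads of these genes are uncertain because they have near copies: the share of 31-base words in no other gene was 6.85% for Zfp987, 20.5% for Zfp988, 40.1% for Zfp981, 48.7% for Zfp345 and 50.1% for Zfp992.

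In the tumours, 5 genes higher than in control liver had moved part of the way in KAP1-deleted liver and went further. Cdhr2, a protocadherin that links the tips of intestinal microvilli, was at 0.0577 and 0.0509 CPM in the control livers, 3.79 and 2.44 in the KAP1-deleted livers and 70.1 and 45.9 in the tumours. The 3 groups did not overlap, and they stood in the order control, KAP1-deleted liver, tumour. Cdhr2 rose by a log2 fold change of 10.02 ± 0.46 in tumour (adjusted p = 9.78e-05), by 5.80 ± 0.48 in KAP1-deleted liver (adjusted p = 0.00722) and by 4.22 ± 0.30 from KAP1-deleted liver to tumour (adjusted p = 0.000720). The call in KAP1-deleted liver was lost without control liver 2 (0.0647). Gm11100, a predicted gene chosen here after its values were seen, was at 0.173 and 0.289 CPM in the control livers, 47.3 and 65.1 in the KAP1-deleted livers and 178 and 319 in the tumours (adjusted p = 9.78e-05 for tumour against control). Gm13348, also predicted and chosen in the same way, had 0 counts in the controls and was at 1.25 and 1.21 CPM in KAP1-deleted liver and 7.48 and 3.50 CPM in tumour.

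Genes already lowered in KAP1-deleted liver were fewer. Rarres1, a retinoid-responsive membrane protein lost in several carcinomas, was at 63.97 and 81.6 CPM in the control livers, 1.27 and 2.33 in the KAP1-deleted livers and 0.166 and 0.552 in the tumours. Each group lay below the one before, with no overlap. It fell by 7.73 ± 0.56 log2 units in tumour (adjusted p = 0.000825), and the log2 fold change was -5.33 ± 0.49 in KAP1-deleted liver (adjusted p = 0.0150) and -2.40 ± 0.53 from there to tumour (adjusted p = 0.0334). The KAP1-deleted call was lost without control liver 1 (0.168) or control liver 2 (0.130), and the last without control liver 1 (0.0956), control liver 2 (0.0952), KAP1-deleted liver 2 (0.176) or tumour 1 (0.100). Nlrp12, a regulator of inflammatory signalling, was at 71.2 and 50.1 CPM in the control livers, 6.25 and 2.88 in the KAP1-deleted livers and 0.898 and 1.49 in the tumours with the same order. Its log2 fold change was -5.68 ± 0.47 in tumour (adjusted p = 0.00110), -3.73 ± 0.43 in KAP1-deleted liver (adjusted p = 0.0244, lost without control liver 1 (0.213) or control liver 2 (0.127)) and -1.95 ± 0.43 between these (adjusted p = 0.0314, lost without control liver 1 (0.0665), control liver 2 (0.0731), KAP1-deleted liver 1 (0.0669), tumour 1 (0.144) or tumour 2 (0.0569)).

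Cyp7b1, an oxysterol hydroxylase of the alternative bile acid pathway, was at 269.8 and 114 CPM in the control livers, 19.2 and 20.3 in the KAP1-deleted livers and 10.7 and 10.7 in the tumours. All 4 libraries with deleted Trim28 were below both controls, which themselves differed. It fell by 4.16 ± 0.40 log2 units in tumour (adjusted p = 0.00139), with -3.28 ± 0.39 in KAP1-deleted liver (adjusted p = 0.0244), the latter lost without KAP1-deleted liver 1 (0.120), KAP1-deleted liver 2 (0.129), tumour 1 (0.0616) or tumour 2 (0.0622), and was not called between these (adjusted p = 0.155). Ifi27, an interferon-inducible mitochondrial protein, was at 68.9 and 90.0 CPM in the control livers, 19.3 and 20.2 in the KAP1-deleted livers and 5.30 and 7.92 in the tumours. The 3 groups did not overlap, and Ifi27 was called in all 3 comparisons with any 1 library left out. Its log2 fold change was -3.59 ± 0.25 in tumour (adjusted p = 0.000460), -2.01 ± 0.24 in KAP1-deleted liver (adjusted p = 0.0217) and -1.58 ± 0.24 between these (adjusted p = 0.00780). Zap70, Aatk and Fam47e also went further, reaching -4.66 ± 0.44, -3.98 ± 0.34 and -5.08 ± 0.47 in tumour (adjusted p = 0.00110, 0.000785 and 0.00110). Between KAP1-deleted liver and tumour the adjusted p was 0.0453 for Zap70, 0.0124 for Aatk and 0.0204 for Fam47e. That further fall was lost for Zap70 without control liver 1 (0.0506), control liver 2 (0.0564), KAP1-deleted liver 2 (0.304), tumour 1 (0.212) or tumour 2 (0.0986), for Aatk without tumour 1 (0.0829) or tumour 2 (0.0552) and for Fam47e without KAP1-deleted liver 1 (0.0789) or KAP1-deleted liver 2 (0.0806). Zap70, a kinase of T cell receptor signalling, was at 12.1 and 9.51 CPM in the control livers. It was at 0.818 and 1.86 CPM in the KAP1-deleted livers and 0.345 and 0.514 CPM in the tumours. The summed level of the 14 lymphocyte markers was 7.22 and 7.10 CPM in the controls and 6.79 and 57.9 CPM in the KAP1-deleted livers. In the tumours that sum was 8.38 and 13.1 CPM. It includes B cell genes such as the immunoglobulin gene Ighm, so it does not give the level of T cells. The T cell genes Cd3d, Cd3e and Cd3g were at 0.144, 0.202 and 0.548 CPM in control liver 1 and 0.153, 0.102 and 0.255 in control liver 2. They were at 0.166, 0.262 and 0.469 CPM in tumour 1 and 0.571, 0.438 and 1.68 in tumour 2. None of them was called between tumour and control liver (adjusted p = 0.286, 0.242 and 0.215). The part of T cells in the fall of Zap70 was not tested. Grm8 and Hspb1, a glutamate receptor and a small heat shock protein, were held at -5.02 ± 0.53 and -3.43 ± 0.47 in tumour (adjusted p = 0.00159 and 0.00428). In KAP1-deleted liver the adjusted p was 0.0301 for Zap70, 0.0476 for Aatk, 0.0476 for Fam47e, 0.0217 for Grm8 and 0.0474 for Hspb1. The call in KAP1-deleted liver was lost for Zap70 without control liver 1 (0.115), control liver 2 (0.0760), tumour 1 (0.0653) or tumour 2 (0.0640), for Fam47e without control liver 1 (0.261), control liver 2 (0.196), KAP1-deleted liver 1 (0.234) or KAP1-deleted liver 2 (0.267) and for Grm8 without tumour 1 (0.0610) or tumour 2 (0.0598). For Aatk it was lost without control liver 2 (0.0819), KAP1-deleted liver 1 (0.128), KAP1-deleted liver 2 (0.0635), tumour 1 (0.103) or tumour 2 (0.101), and for Hspb1 without control liver 2 (0.0747), KAP1-deleted liver 1 (0.233), KAP1-deleted liver 2 (0.204), tumour 1 (0.0616) or tumour 2 (0.0622).

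A change present in KAP1-deleted liver was smaller in tumour for 4 genes, Sult1e1, Selenbp2, Ism1 and Gm20319, the last 2 named after their values were seen. Sult1e1, the sulfotransferase that inactivates oestrogens, was at 2.42 and 1.24 CPM in the control livers, 72.5 and 68.4 in the KAP1-deleted livers and 5.01 and 13.1 in the tumours. The KAP1-deleted livers were far above both other groups, and the tumours were above the controls without overlap. Its log2 fold change was 5.30 ± 0.57 in KAP1-deleted liver (adjusted p = 0.0294), 2.33 ± 0.52 in tumour (adjusted p = 0.0344) and -2.97 ± 0.50 between these (adjusted p = 0.0175). These calls were lost without control liver 1 (0.293), control liver 2 (0.306), KAP1-deleted liver 1 (0.233) or KAP1-deleted liver 2 (0.227) for the first, without control liver 1 (0.107), control liver 2 (0.263), KAP1-deleted liver 1 (0.119), KAP1-deleted liver 2 (0.119) or tumour 2 (0.0631) for the second and without control liver 1 (0.0508), control liver 2 (0.0509), KAP1-deleted liver 1 (0.118) or KAP1-deleted liver 2 (0.144) for the third. Selenbp2, a selenium-binding protein, was at 40.6 and 54.8 CPM in the control livers, 214 and 365 in the KAP1-deleted livers and 87.6 and 123 in the tumours. Its log2 fold change was 2.60 ± 0.32 in KAP1-deleted liver (adjusted p = 0.0244), 1.14 ± 0.31 in tumour (adjusted p = 0.0458) and -1.46 ± 0.31 between these (adjusted p = 0.0240). The first was lost without control liver 1 (0.158), control liver 2 (0.0819), tumour 1 (0.0610) or tumour 2 (0.0598), the second without control liver 1 (0.157), control liver 2 (0.0948), tumour 1 (0.0837) or tumour 2 (0.215) and the third without KAP1-deleted liver 2 (0.104), tumour 1 (0.142) or tumour 2 (0.0602). It shares sequence with a near copy, since 40.7% of its 31-base words occur in no other gene.

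The tumour-only changes included feedback and target genes of Wnt/beta-catenin signalling. The gene lists were chosen with earlier results of these data known, so their counts are descriptions. Over all genes tested 6.15% were called higher and 7.76% lower in tumour, the shares to set beside each list count here and below. Of 13 Wnt/beta-catenin genes tested, 9 rose and none fell between control liver and tumour. Their median log2 fold change was 1.90 against -0.02 over all genes. All 9 were tumour only. In KAP1-deleted liver edgeR called 0 of the 13, as did DESeq2 and limma-voom, 0 had an unadjusted p under 0.05, and the median was -0.19. Nkd1, an inhibitor of the pathway induced by it, was at 2.51 and 2.72 CPM in the control livers, 1.98 and 2.25 in the KAP1-deleted livers and 51.4 and 38.9 in the tumours. Lgr5, a receptor for R-spondins that marks pericentral hepatocytes and stem cells, was at 4.71 and 4.91 CPM in the control livers, 5.93 and 4.58 in the KAP1-deleted livers and 56.1 and 53.5 in the tumours. Axin2, a scaffold of the complex that destroys beta-catenin and a common readout of the pathway, was at 3.78 and 3.58 CPM in the control livers, 2.75 and 3.35 in the KAP1-deleted livers and 35.1 and 22.3 in the tumours. In all 3 genes both tumours were above all 4 livers.

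The log2 fold change in tumour against control was 4.11 ± 0.22 for Nkd1 (adjusted p = 0.000173), 3.51 ± 0.20 for Lgr5 (adjusted p = 0.000218) and 2.96 ± 0.27 for Axin2 (adjusted p = 0.000930). Rnf43, a ubiquitin ligase that removes Wnt receptors, was at 18.5 and 20.7 CPM in the control livers, 21.4 and 19.96 in the KAP1-deleted livers and 111 and 86.2 in the tumours and rose by 2.33 ± 0.19 log2 units (adjusted p = 0.000744). In KAP1-deleted against control liver the values were -0.31 ± 0.22, 0.13 ± 0.19, -0.27 ± 0.26 and 0.07 ± 0.19, none of them called (the adjusted p rounded to 1). Against KAP1-deleted liver the tumour differences were 4.42 ± 0.23, 3.38 ± 0.20, 3.23 ± 0.27 and 2.26 ± 0.19 (adjusted p = 0.000253, 0.000304, 0.00119 and 0.00122). These tumour calls held with any 1 library left out. Tnfrsf19, Sp5, Znrf3, Tcf7 and Notum were the other 5 called, with log2 fold changes of 3.34, 2.91, 1.90, 1.87 and 1.23.

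Pericentral hepatocyte genes rose in 9 of 15 tested, all tumour only, with a median of 1.42. The count was 5 without tumour 1. In KAP1-deleted liver edgeR called 0 of the 15, 4 had an unadjusted p under 0.05, DESeq2 called 2 lower and limma-voom 0, and the median was -0.17. Glul, glutamine synthetase, was at 664 and 899.9 CPM in the control livers, 303 and 535 in the KAP1-deleted livers and 5037 and 4599.9 in the tumours. Slc1a2, the glutamate transporter that supplies it, was at 356 and 359 CPM in the control livers, 197 and 233 in the KAP1-deleted livers and 4861 and 2895 in the tumours. Both tumours exceeded every liver library several-fold, and the KAP1-deleted livers were below the controls in both genes. Glul rose by 2.62 ± 0.36 log2 units against control (adjusted p = 0.00425) and 3.52 ± 0.37 against KAP1-deleted liver (adjusted p = 0.00238), with -0.90 ± 0.34 between the liver groups (adjusted p = 0.769). Slc1a2 rose by 3.44 ± 0.33 log2 units against control (adjusted p = 0.00125) and 4.18 ± 0.35 against KAP1-deleted liver (adjusted p = 0.00119), with -0.74 ± 0.31 between the liver groups (adjusted p = 0.890). Slc22a3, an organic cation transporter, was at 3.38 and 4.63 CPM in the control livers, 2.75 and 3.37 in the KAP1-deleted livers and 47.9 and 25.9 in the tumours, and Lect2, a secreted protein raised in beta-catenin tumours, was at 50.1 and 99.2 CPM in the control livers, 64.1 and 88.6 in the KAP1-deleted livers and 356 and 585 in the tumours. They rose in tumour by 3.20 ± 0.33 (adjusted p = 0.00145) and 2.66 ± 0.39 (adjusted p = 0.00601). For these 4 genes the tumour calls against either liver group held with any 1 library left out.

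TCF/LEF proteins, the DNA-binding partners of beta-catenin, recognise sites that contain the letters CTTTGA or, on the other strand, TCAAAG. Of the 18 tumour-only genes of the Wnt target and pericentral lists, 12 had a RefSeq promoter window and 6 of these held the letters on either strand: Sp5, Slc1a2, Lect2, Slc22a3, Cyp1a2 and Tnfrsf19. Of all 27025 genes with a window of the same length, 18.2% held them. The match is a description of the letters and not of binding. The windows of Sp5 (chr2:70474673-70474972 (plus strand)), Slc1a2 (chr2:102706188-102706487 (plus strand)) and Lect2 (chr13:56548489-56548788 (minus strand)) are shown, with the letters in capitals, for a Wnt target, a pericentral transporter and a secreted pericentral protein.
Sp5: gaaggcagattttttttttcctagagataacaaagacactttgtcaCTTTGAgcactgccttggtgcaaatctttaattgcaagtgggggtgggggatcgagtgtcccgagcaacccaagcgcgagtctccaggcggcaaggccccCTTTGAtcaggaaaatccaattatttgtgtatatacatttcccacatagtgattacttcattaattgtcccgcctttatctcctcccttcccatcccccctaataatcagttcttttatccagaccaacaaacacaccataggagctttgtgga
Slc1a2: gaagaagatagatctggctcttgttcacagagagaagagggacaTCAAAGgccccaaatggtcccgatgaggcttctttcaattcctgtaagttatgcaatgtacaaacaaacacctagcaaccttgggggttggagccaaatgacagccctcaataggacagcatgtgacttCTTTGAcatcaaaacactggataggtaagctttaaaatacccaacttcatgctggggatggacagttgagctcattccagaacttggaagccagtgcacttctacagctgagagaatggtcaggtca
Lect2: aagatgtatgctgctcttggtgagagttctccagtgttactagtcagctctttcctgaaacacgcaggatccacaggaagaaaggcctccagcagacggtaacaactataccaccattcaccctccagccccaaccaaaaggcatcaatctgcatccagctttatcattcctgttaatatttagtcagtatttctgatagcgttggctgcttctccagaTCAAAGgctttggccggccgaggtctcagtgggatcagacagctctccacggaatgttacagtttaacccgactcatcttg
Sp5, a transcription factor of the pathway, was at 0.231 and 0.526 CPM in the control livers, 0.0454 and 0.212 in the KAP1-deleted livers and 4.07 and 1.87 in the tumours (adjusted p = 0.0209 for tumour against control). Both tumours were above all 4 livers.

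Periportal genes moved the other way. Of 20 tested, 12 fell and none rose, all 12 tumour only, and the median log2 fold change was -2.67. In KAP1-deleted liver edgeR, DESeq2 and limma-voom each called 0 of the 20, 0 had an unadjusted p under 0.05, and the median was 0.23. Pck1, the enzyme that commits carbon to glucose synthesis, was at 2783 and 1746 CPM in the control livers, 1200.2 and 1373 in the KAP1-deleted livers and 75.8 and 179 in the tumours. Arg1, which releases urea from arginine, was at 1490.5 and 1022 CPM in the control livers, 1546 and 1122 in the KAP1-deleted livers and 68.2 and 194 in the tumours. Ass1, which makes argininosuccinate, was at 1296 and 998 CPM in the control livers, 1193 and 1245 in the KAP1-deleted livers and 332 and 235 in the tumours. For each the tumours were below all 4 livers, and for Arg1 and Ass1 the KAP1-deleted livers overlapped the controls. Their log2 fold changes in tumour were -4.15 ± 0.48 (adjusted p = 0.00209), -3.26 ± 0.51 (adjusted p = 0.00768) and -2.02 ± 0.28 (adjusted p = 0.00434). Against KAP1-deleted liver they were -3.34 ± 0.46, -3.35 ± 0.51 and -2.10 ± 0.28 (adjusted p = 0.00559, 0.00889 and 0.00492). Sdsl, a serine dehydratase-like enzyme, was at 6.29 and 4.09 CPM in the control livers, 7.88 and 6.12 in the KAP1-deleted livers and 0.442 and 1.12 in the tumours and fell by 2.75 ± 0.44 log2 units (adjusted p = 0.00774). These calls held with any 1 library left out, although Ass1 has processed copies (56.9% of its 31-base words occur in no other gene).

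Of 8 tested urea cycle genes, 6 fell in tumour, 5 of them tumour only. The count was 2 without tumour 1 and 3 without tumour 2. Cps1, the first enzyme of the cycle, was at 7916 and 4118 CPM in the control livers, 7879 and 5870.5 in the KAP1-deleted livers and 705 and 1211 in the tumours and fell by 2.65 ± 0.44 log2 units (adjusted p = 0.00890), a call lost without tumour 1 (0.0589). In the gluconeogenesis and glycogen list 7 of 15 fell and 1 rose, all 8 tumour only. The falls numbered 2 and the rises 0 without tumour 1. Fbp1, a gluconeogenic phosphatase, was at 759.5 and 567 CPM in the control livers, 699 and 588 in the KAP1-deleted livers and 217 and 154 in the tumours and fell by 1.84 ± 0.27 log2 units (adjusted p = 0.00574) with any 1 library left out. No member of either list was called in KAP1-deleted liver by edgeR, DESeq2 or limma-voom, and 0 had an unadjusted p under 0.05.

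**Figure D3:**
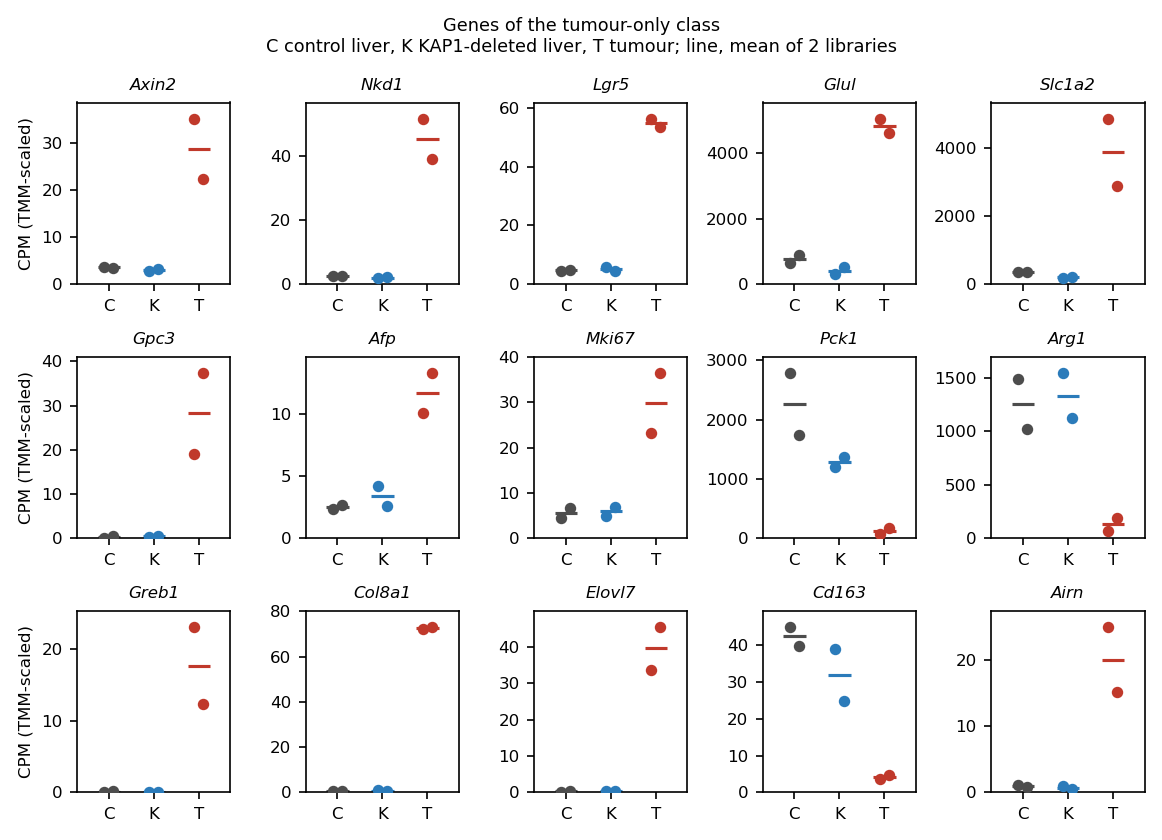
Level of 15 tumour-only genes (CPM, TMM-scaled, linear axis from 0) in control liver (C), KAP1-deleted liver (K) and tumour (T); points are libraries and lines the mean of 2. Wnt target, pericentral, oncofetal and proliferation genes are highest in both tumours, and Pck1, Arg1 and Cd163 are lowest there, while control and KAP1-deleted livers lie near each other for most genes.

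Genes of mitosis and DNA replication rose in 20 of 35 tested, with none lower, all of them tumour only, and the median log2 fold change was 1.80. The count was 12 without tumour 2. In KAP1-deleted liver edgeR, DESeq2 and limma-voom each called 0 of the 35, 3 had an unadjusted p under 0.05, and the median was -0.18. Mki67, the gene of the proliferation antigen Ki-67, was at 4.53 and 6.71 CPM in the control livers, 5.04 and 6.84 in the KAP1-deleted livers and 23.3 and 36.4 in the tumours. Ccnb1, the cyclin that drives entry into mitosis, was at 0.318 and 0.475 CPM in the control livers, 0.250 and 0.551 in the KAP1-deleted livers and 3.76 and 5.88 in the tumours. Both tumours were above all 4 livers in both genes, and the livers overlapped. Mki67 rose by 2.40 ± 0.30 log2 units (adjusted p = 0.00314), Ccnb1 by 3.56 ± 0.45 (adjusted p = 0.00304), the spindle motor Kif11 by 2.14 ± 0.27 (adjusted p = 0.00313) and the spindle midzone protein Prc1 by 2.58 ± 0.30 (adjusted p = 0.00227), each with any 1 library left out.

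Of 16 tested oncofetal and progenitor genes, 3 rose in tumour, all tumour only, and 2 fell, both undecided. The median log2 fold change was -0.78, with 13 of the 16 under 0. The falls numbered 0 without tumour 1 and 5 without tumour 2. Gpc3, a glypican used to mark hepatocellular carcinoma, was at 0.115 and 0.645 CPM in the control livers, 0.318 and 0.593 in the KAP1-deleted livers and 19.1 and 37.4 in the tumours. Afp, the fetal albumin relative, was at 2.40 and 2.72 CPM in the control livers, 4.18 and 2.61 in the KAP1-deleted livers and 10.1 and 13.3 in the tumours, and Golm1, a Golgi protein raised in liver tumours, was at 2.40 and 3.48 CPM in the control livers, 3.82 and 4.49 in the KAP1-deleted livers and 18.8 and 26.6 in the tumours. Tumours were above all livers in each, and Gpc3 stayed under 1 CPM in all 4 livers. Gpc3 rose by 6.07 ± 0.69 log2 units (adjusted p = 0.00447), Afp by 2.19 ± 0.29 (adjusted p = 0.00360) and Golm1 by 2.94 ± 0.27 (adjusted p = 0.00110). These calls held with any 1 library left out, whereas the Gpc3 difference of 5.94 ± 0.69 between tumour and KAP1-deleted liver (adjusted p = 0.00599) was lost without KAP1-deleted liver 1 (0.0935) or KAP1-deleted liver 2 (0.0983). Tff3, a trefoil peptide of mucous epithelia, fell from 3.90 and 0.815 CPM in control liver to 0.0138 and 0.0190 CPM in tumour, 1 count in each. The count ratio of control over tumour was 122 (95% counting interval 33.3 to 1017) (adjusted p = 0.00831), and the call was lost without tumour 1 (0.0638).

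Large tumour-only rises were seen in genes barely detected in either liver group. Hsd3b1, a steroid dehydrogenase of the adrenal gland and gonads, was at 0 and 0 CPM in the control livers, 0 and 0.0212 in the KAP1-deleted livers and 7.11 and 5.14 in the tumours. It was at least 191-fold higher in tumour than in control liver against the limit of 3 counts over the group (adjusted p = 0.000676). Greb1, an oestrogen-responsive gene, was at 0.0577 and 0.153 CPM in the control livers, 0.0454 and 0.127 in the KAP1-deleted livers and 23.1 and 12.3 in the tumours and rose by 7.24 ± 0.53 log2 units (adjusted p = 0.000521). Elovl7, a fatty acid elongase, was at 0.231 and 0.407 CPM in the control livers, 0.431 and 0.339 in the KAP1-deleted livers and 33.7 and 45.4 in the tumours and rose by 6.88 ± 0.33 log2 units (adjusted p = 9.78e-05). Col8a1, a short-chain collagen, was at 0.635 and 0.679 CPM in the control livers, 0.954 and 0.657 in the KAP1-deleted livers and 72.4 and 73.1 in the tumours and rose by 6.78 ± 0.25 log2 units (adjusted p = 7.01e-05), the 2 tumours differing by less than 1 CPM. Dlgap2, a postsynaptic scaffold protein, was at 0.0866 and 0.0170 CPM in the control livers, 0.0454 and 0.0424 in the KAP1-deleted livers and 7.55 and 3.29 in the tumours and rose by 6.87 ± 0.69 log2 units (adjusted p = 0.00137). In these 5 genes the tumour calls against either liver group held with any 1 library left out.

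Other large rises were uneven between the tumours. Plat, tissue plasminogen activator, was at 0.491 and 0.968 CPM in the control livers, 0.522 and 0.678 in the KAP1-deleted livers and 68.3 and 287 in the tumours, so the second tumour was the higher. Lrch2, a leucine-rich repeat protein, was at 0.144 and 0.153 CPM in the control livers, 0.227 and 0.191 in the KAP1-deleted livers and 45.8 and 7.67 in the tumours, and the calcium-binding protein S100g at 0.260 and 0.187 CPM in the control livers, 0.818 and 0.784 in the KAP1-deleted livers and 83.1 and 14.2 in the tumours, so the first tumour was the higher. Their log2 fold changes were 7.87 ± 0.94 (adjusted p = 0.00831), 7.46 ± 1.15 (adjusted p = 0.0169) and 7.80 ± 1.15 (adjusted p = 0.0161). The call of Plat was lost without control liver 1 (0.109), control liver 2 (0.147), KAP1-deleted liver 1 (0.0793) or KAP1-deleted liver 2 (0.0795), that of Lrch2 without control liver 1 (0.167), control liver 2 (0.245), KAP1-deleted liver 1 (0.124) or KAP1-deleted liver 2 (0.123) and that of S100g without control liver 1 (0.155), control liver 2 (0.231), KAP1-deleted liver 1 (0.124) or KAP1-deleted liver 2 (0.123). Cyp2c55, a cytochrome P450, was at 0.202 and 0.815 CPM in the control livers, 0.636 and 0.975 in the KAP1-deleted livers and 45.7 and 163 in the tumours and rose by 7.55 ± 0.96 log2 units (adjusted p = 0.0103), a call lost without control liver 1 (0.0959), control liver 2 (0.120), KAP1-deleted liver 1 (0.0939) or KAP1-deleted liver 2 (0.0934). Arnt2, a transcription factor mostly of brain, had 1 count in the control group and was at 1.23 and 4.95 CPM in tumour, a count ratio of 261 (95% counting interval 46.6 to 10351) (adjusted p = 0.00552, lost without control liver 2 (0.0675)).

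Lipid genes fell in part. In the list of fatty acid and triglyceride synthesis 6 of 20 fell, 5 tumour only, and the median log2 fold change was -1.05 in tumour and -0.20 in KAP1-deleted liver. Acly, which makes cytosolic acetyl-CoA, was at 126 and 103 CPM in the control livers, 95.7 and 88.6 in the KAP1-deleted livers and 28.4 and 36.7 in the tumours and fell by 1.82 ± 0.20 log2 units (adjusted p = 0.00194). Fasn, fatty acid synthase, was at 198 and 146 CPM in the control livers, 158 and 121 in the KAP1-deleted livers and 46.0 and 59.5 in the tumours and fell by 1.71 ± 0.25 log2 units (adjusted p = 0.00533). Srebf1, the transcription factor that drives these genes, was at 77.4 and 86.1 CPM in the control livers, 51.8 and 53.6 in the KAP1-deleted livers and 20.05 and 30.6 in the tumours and fell by 1.69 ± 0.23 log2 units (adjusted p = 0.00383). In each gene both tumours were below all 4 livers. In the list of fatty acid oxidation 2 of 24 rose and 1 fell, against 6.15% and 7.76% of all genes, with a median of -0.10. The rises numbered 1 without control liver 2 or tumour 1, and the falls numbered 3 without control liver 1 and 0 without any 1 of the other 5 libraries. Pdk4, a kinase that shuts off pyruvate oxidation, was at 13.0 and 9.78 CPM in the control livers, 14.8 and 18.0 in the KAP1-deleted livers and 91.3 and 61.7 in the tumours and rose by 2.75 ± 0.26 log2 units (adjusted p = 0.00110), against the direction of the synthesis genes.

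Cholesterol genes had estimates under 0 in KAP1-deleted liver as well, but none was called there. All 22 tested had a log2 fold change under 0 in KAP1-deleted liver, with a median of -1.02. The 22 genes were measured in the same libraries, so their common sign does not count as 22 separate observations. EdgeR called 0 of them there, as did DESeq2 and limma-voom, and 5 had an unadjusted p under 0.05. In tumour against control 6 fell, 3 of them tumour only and 3 undecided, and the median was -1.58. The count was 3 without tumour 2. Tm7sf2, a sterol reductase, was at 40.2 and 40.0 CPM in the control livers, 29.9 and 26.0 in the KAP1-deleted livers and 10.2 and 8.36 in the tumours and fell by 2.11 ± 0.18 log2 units (adjusted p = 0.000832) with any 1 library left out.

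Of 22 hepatocyte identity genes and secreted proteins, 8 fell in tumour and none rose, 4 tumour only and 4 undecided, with a median of -0.76. The count was 4 without control liver 2 and 1 without tumour 1. Tat, tyrosine aminotransferase, was at 1049 and 547 CPM in the control livers, 296 and 374 in the KAP1-deleted livers and 56.7 and 86.0 in the tumours. The 3 groups did not overlap, and Tat fell by 3.48 ± 0.38 log2 units in tumour (adjusted p = 0.00179), with -1.25 ± 0.35 in KAP1-deleted liver (adjusted p = 0.417). Against KAP1-deleted liver the difference was -2.23 ± 0.36 (adjusted p = 0.0102), lost without tumour 1 (0.0731). Cebpa, a transcription factor of mature hepatocytes, was at 106 and 157 CPM in the control livers, 138 and 166 in the KAP1-deleted livers and 44.9 and 50.1 in the tumours and fell by 1.47 ± 0.23 log2 units (adjusted p = 0.00744), lost without tumour 1 (0.0604). Alb, albumin, was at 61369 and 74525 CPM in the control livers, 53805 and 64523 in the KAP1-deleted livers and 18162 and 34887 in the tumours, with tumours below all livers but no call (log2 fold change -1.36 ± 0.44, adjusted p = 0.0796).

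In bile acid synthesis and transport 3 of 15 rose and 5 fell in tumour, 1 fall (Cyp7b1) already present and 5 changes tumour only. The rises numbered 0 or 1 without control liver 2, KAP1-deleted liver 1 or 2, or tumour 1 or 2, and the falls 2 or 3 without control liver 1 or 2, KAP1-deleted liver 1 or 2, or tumour 1. Cyp8b1, the sterol hydroxylase that leads to cholic acid, was at 335 and 223 CPM in the control livers, 259.6 and 249 in the KAP1-deleted livers and 11.3 and 32.9 in the tumours and fell by 3.66 ± 0.52 log2 units (adjusted p = 0.00761), lost without control liver 1 (0.0650) or control liver 2 (0.0667). Slc10a1, the main bile acid uptake carrier of hepatocytes, was at 362 and 329 CPM in the control livers, 408 and 335 in the KAP1-deleted livers and 17.7 and 63.1 in the tumours and fell by 3.10 ± 0.57 log2 units (adjusted p = 0.0189), lost without control liver 1 (0.134), control liver 2 (0.173), KAP1-deleted liver 1 (0.0806) or KAP1-deleted liver 2 (0.0794). Abcc4, an export pump, was at 2.57 and 3.07 CPM in the control livers, 4.27 and 4.98 in the KAP1-deleted livers and 67.3 and 20.6 in the tumours and rose by 3.96 ± 0.58 log2 units (adjusted p = 0.0101), lost without control liver 1 (0.137), control liver 2 (0.181), KAP1-deleted liver 1 (0.0616) or KAP1-deleted liver 2 (0.0587).

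Some liver genes differ in level between male and female mice. Of 20 male-biased genes 11 fell, 6 of them tumour only, and 1, Selenbp2, rose in tumour, with a median of -2.67 in tumour and -0.34 in KAP1-deleted liver. The falls numbered 3 without control liver 1, 5 without KAP1-deleted liver 1 or 2 and 6 without tumour 1. Of 24 female-biased genes 10 rose, 7 of them tumour only, with medians of 1.04 and 0.39, and 9 of the 24 had a log2 fold change under 0 in tumour. Between KAP1-deleted liver and tumour 7 of the 24 rose and 3 fell, with a median of 0.02. In KAP1-deleted against control liver edgeR called 1 male-biased gene higher and 1 lower, and 1 female-biased gene higher. There 8 of the 20 and 8 of the 24 had an unadjusted p under 0.05, against 955 of all 17558 genes. DESeq2 called 2 male-biased genes higher and 3 lower there, and 3 female-biased genes higher. The labels do not give the sex of the mice. The 4 Y-linked genes Ddx3y, Uty, Kdm5d and Eif2s3y were detected in all 6 libraries at 26.3 to 223 CPM, and Xist, which silences 1 X chromosome in females, was at 0.323 to 1.41 CPM. Among the male-biased genes, Susd4, a complement regulator, was at 22.2 and 8.98 CPM in the control livers, 4.07 and 5.97 in the KAP1-deleted livers and 0.456 and 1.01 in the tumours and fell by 4.43 ± 0.59 log2 units (adjusted p = 0.00583). Mup7, a major urinary protein, was at 16045 and 3477 CPM in the control livers, 4802 and 4661 in the KAP1-deleted livers and 114 and 476 in the tumours, with control 1 far above control 2, and fell by 5.05 ± 1.02 log2 units (adjusted p = 0.0274), lost without control liver 1 (0.0724), KAP1-deleted liver 1 (0.114), KAP1-deleted liver 2 (0.112) or tumour 1 (0.0593). Only 9.98% of its 31-base words occur in no other gene, so the reads of Mup genes could be shared. Among the female-biased genes, Cyp2a4, a steroid hydroxylase, was at 19.8 and 43.5 CPM in the control livers, 76.8 and 75.4 in the KAP1-deleted livers and 519 and 293 in the tumours. Controls, KAP1-deleted livers and tumours did not overlap, and it rose by 3.68 ± 0.44 log2 units in tumour (adjusted p = 0.00316) with 1.27 ± 0.40 in KAP1-deleted liver (adjusted p = 0.583). It has near copies as well, with 41.1% of its words in no other gene.

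Of 20 NRF2 targets and glutathione transferases 4 rose and 1 fell, all tumour only, the rises numbering 1 without KAP1-deleted liver 1 or 2. Gstm3, a glutathione transferase, was at 2.02 and 7.72 CPM in the control livers, 2.25 and 4.83 in the KAP1-deleted livers and 178 and 259 in the tumours and rose by 5.46 ± 0.79 log2 units (adjusted p = 0.0139), lost without KAP1-deleted liver 1 (0.0571) or KAP1-deleted liver 2 (0.0573). Its share of 31-base words found in no other gene was 62.3%. Of 17 imprinted genes 3 rose and 1 fell, the falls numbering 2 without tumour 2 and 0 without any 1 of the other 5 libraries. Airn, a long RNA transcribed across Igf2r, was at 1.18 and 0.764 CPM in the control livers, 0.954 and 0.530 in the KAP1-deleted livers and 25.02 and 15.2 in the tumours and rose by 4.39 ± 0.40 log2 units (adjusted p = 0.000948) with any 1 library left out, and Igf2r itself, which clears insulin-like growth factor 2, was at 55.1 and 87.9 CPM in the control livers, 64.5 and 79.5 in the KAP1-deleted livers and 171 and 151 in the tumours and rose by 1.17 ± 0.25 log2 units (adjusted p = 0.0222), lost without tumour 1 (0.108) or tumour 2 (0.0697). Reads of overlapping or antisense genes cannot be told apart if the counting ignored strand. Of 16 growth factor receptors and ligands 2 rose and 4 fell, the falls numbering 1 or 2 without control liver 1 or 2, KAP1-deleted liver 1 or 2, or tumour 1, and the rises 1 without control liver 1 or 2 or tumour 1 or 2. Tgfa, a ligand of the EGF receptor, was at 9.76 and 11.2 CPM in the control livers, 10.7 and 13.9 in the KAP1-deleted livers and 22.4 and 24.9 in the tumours and rose by 1.17 ± 0.20 log2 units (adjusted p = 0.00919) with any 1 library left out. Its call between tumour and KAP1-deleted liver was lost without KAP1-deleted liver 1 or 2 or tumour 1 or 2.

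Of 16 genes in a list of KAP1 and its silencing partners, 2 were called in tumour. Trim28, the deleted gene itself, fell, and Zfp57, a zinc finger protein that guards imprints, rose. Over all genes tested 6.15% were called higher and 7.76% lower, so 1 or 2 calls in a list of this size are close to those shares. Zfp57 was at 0.202 and 0.204 CPM in the control livers, 0.318 and 0.445 in the KAP1-deleted livers and 0.898 and 2.34 in the tumours and rose by 2.97 ± 0.56 log2 units (adjusted p = 0.0136), lost without control liver 2 (0.0631) or tumour 2 (0.0516). Of 16 acute phase proteins 5 fell and none rose, the falls numbering 1 without control liver 1 or 2 and 3 without KAP1-deleted liver 1 or 2 or tumour 1. Of 19 interferon-stimulated genes 2 fell, Irf7 and Oasl1, and neither was called without tumour 1. Of 16 p53 targets 1, Perp, fell, which was not called without tumour 1, while 3 rose without control liver 2 and 1 without tumour 1. Of 16 glycolysis isoenzymes 3 fell, and the falls numbered 6 without control liver 1, 1 without control liver 2 or tumour 2, and 0 without tumour 1. Of 15 chaperones of the endoplasmic reticulum edgeR and limma-voom called 0 between tumour and control liver, DESeq2 called 1 higher and 1 lower, and 4 had an unadjusted p under 0.05. Without control liver 1 the test called 1 of them lower, without tumour 1 it called 2 higher and without tumour 2 it called 2 lower.

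**Figure D4:**
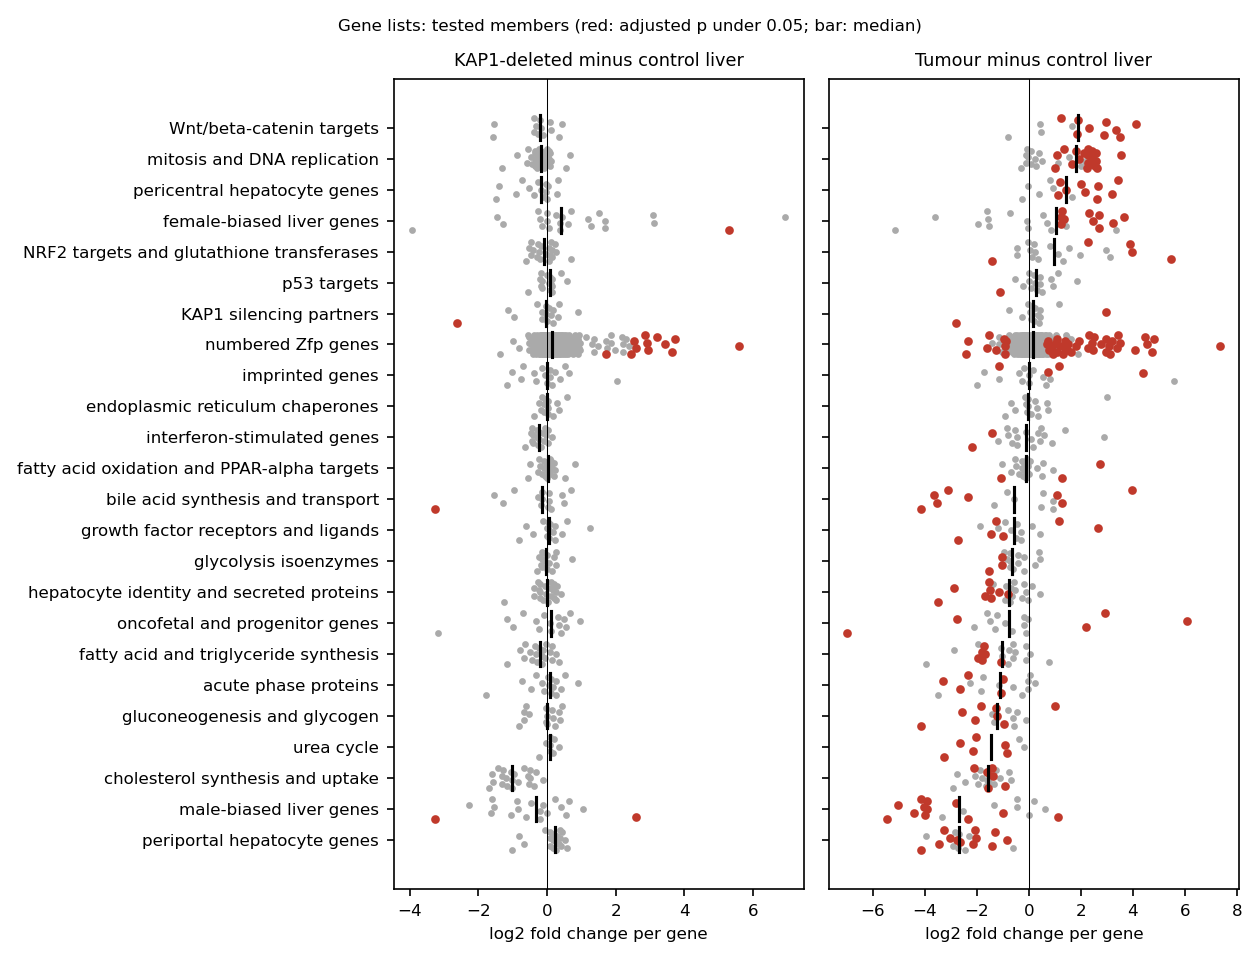
Log2 fold change of each tested member of 24 gene lists (horizontal axis) in KAP1-deleted liver (left) and tumour (right), both against control liver; red points have an adjusted p under 0.05 and black bars are medians. In tumour the Wnt target, mitosis and pericentral lists have medians of 1.90, 1.80 and 1.42 and the periportal list -2.67, while the medians of the same lists in KAP1-deleted liver lie between -0.19 and 0.23.

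Among markers of the other cells of the liver, calls were most frequent for Kupffer cells and macrophages. Over all genes tested 6.15% were called higher and 7.76% lower in tumour, the shares to set beside each marker count here and below. Of 13 Kupffer cell and macrophage markers 8 fell and none rose, 7 of them tumour only, the count being 4 or 5 without control liver 2, KAP1-deleted liver 1 or 2, or tumour 1 or 2. Their summed level was 665 and 654 CPM in control liver, 683 and 662 CPM in KAP1-deleted liver and 299 and 358 CPM in tumour. All 13 had a log2 fold change under 0. Clec4f, a lectin of Kupffer cells, was at 134 and 129 CPM in the control livers, 149 and 130.5 in the KAP1-deleted livers and 38.5 and 33.0 in the tumours, and the haemoglobin scavenger receptor Cd163 at 45.0 and 39.8 CPM in the control livers, 39.0 and 24.9 in the KAP1-deleted livers and 3.70 and 4.72 in the tumours. Clec4f fell by 1.88 ± 0.18 log2 units (adjusted p = 0.00125) and Cd163 fell by 3.33 ± 0.27 log2 units (adjusted p = 0.000676), each with any 1 library left out. The undecided fall was in Csf1r, the receptor for macrophage colony-stimulating factor, which fell by 0.72 ± 0.20 log2 units (adjusted p = 0.0471), lost without control liver 2 (0.173), KAP1-deleted liver 1 (0.0726), KAP1-deleted liver 2 (0.0724), tumour 1 (0.196) or tumour 2 (0.137). Adgre1, a surface receptor of macrophages, was at 38.3 and 42.0 CPM in the control livers, 37.9 and 46.5 in the KAP1-deleted livers and 27.3 and 45.0 in the tumours and their lysosomal protein Cd68 at 6.55 and 7.28 CPM in the control livers, 6.56 and 6.55 in the KAP1-deleted livers and 5.16 and 6.21 in the tumours, and neither was called (adjusted p = 0.728 and 0.385). No Kupffer cell marker was at 0 in any library.

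Of 12 stellate cell and fibroblast markers 3 fell in tumour, the falls numbering 1 without control liver 2 or tumour 1 and 7 without tumour 2, while 2 rose without control liver 2. Their summed level was 487 and 537 CPM in control liver and 245 and 412 CPM in tumour. Rgs5, a marker of pericytes, was at 71.9 and 57.8 CPM in the control livers, 66.1 and 64.8 in the KAP1-deleted livers and 18.5 and 24.4 in the tumours and fell by 1.60 ± 0.20 log2 units (adjusted p = 0.00324). Of 12 sinusoidal endothelial markers 2 fell, the count being 4 without control liver 1, 1 without control liver 2 or KAP1-deleted liver 1 or 2, and 0 without tumour 1, with sums of 466 and 459 CPM in control liver and 314 and 326 CPM in tumour. Of 13 tested lymphocyte markers 1, Cd8a, rose, which was not called without control liver 1 or 2 or tumour 2, and 2 rose without tumour 1. Their sum was 7.10 to 8.38 CPM in both controls and tumour 1, 13.1 CPM in tumour 2, and 57.9 CPM in KAP1-deleted liver 2. Cholangiocyte markers summed to 15.7 and 31.8 CPM in control liver and 3.16 and 22.1 CPM in tumour, with Sctr at 0 in both tumours, and 0 of 5 tested were called by edgeR, DESeq2 or limma-voom, with 1 at an unadjusted p under 0.05, while 2 were lower without tumour 2. Exocrine pancreas genes summed to 5.74 and 8.45 CPM in control liver and 9.85 and 38.7 CPM in tumour, and 41.7 CPM in the KAP1-deleted liver of the second mouse. The part of cell makeup in the classes was not tested.

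**Figure D5:**
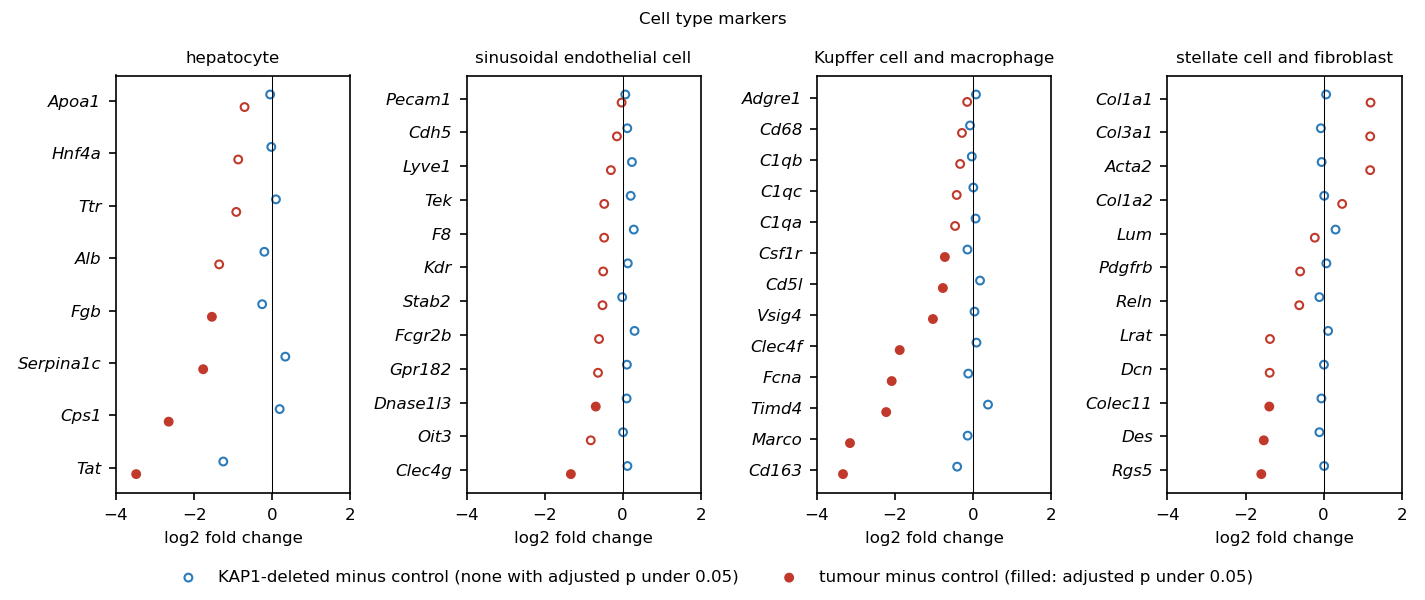
Log2 fold change of each marker of 4 cell types in KAP1-deleted liver (blue) and tumour (red) against control liver; filled points have an adjusted p under 0.05. Of the Kupffer cell and macrophage markers, 8 are lower in tumour, led by Cd163 and Marco, and Adgre1 and Cd68 lie near 0, while no blue point is called.

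The undecided class held 806 genes that the data could place on neither side. Ccdc114, a protein of motile cilia, was at 0.0289 and 0.119 CPM in the control livers, 1.48 and 1.74 in the KAP1-deleted livers and 1.20 and 3.26 in the tumours. It rose by 4.70 ± 0.69 log2 units in tumour (adjusted p = 0.00557), and the value of 4.24 ± 0.69 in KAP1-deleted liver missed the threshold (adjusted p = 0.0695) although both liver groups were apart. Some tumour-only genes were close to that boundary as well. Gcnt4, a glycosyltransferase, was at 8.08 and 4.89 CPM in the control livers, 0.999 and 0.508 in the KAP1-deleted livers and 0.0414 and 0.171 in the tumours, with -5.99 ± 0.62 in tumour (adjusted p = 0.00143) and -3.10 ± 0.50 in KAP1-deleted liver (adjusted p = 0.0695), so 51.7% of its fall was present outside the tumour. Its difference between tumour and KAP1-deleted liver was -2.89 ± 0.64 (adjusted p = 0.0277), lost without KAP1-deleted liver 1 (0.0952) or tumour 1 (0.137). F11, coagulation factor XI, was at 27.3 and 29.4 CPM in the control livers, 9.70 and 12.1 in the KAP1-deleted livers and 0.649 and 2.25 in the tumours. It fell by 4.32 ± 0.54 log2 units (adjusted p = 0.00514), lost without control liver 2, with 32.0% of the fall present in KAP1-deleted liver. Its call between tumour and KAP1-deleted liver was lost without control liver 1 or 2 or KAP1-deleted liver 1 or 2. Where unadjusted p-values under 0.05 decided the 2 comparisons with KAP1-deleted liver, the already present class held 405 genes and the undecided class 91.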

How the data were processed

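RNA from mouse liver and liver tumour was sequenced in 6 libraries of 3 groups, 2 per group, from 4 mice. The deposited files hold raw read counts per gene for each library, made by the authors with TopHat and HTSeq 0.6.1 on mouse build mm9, per the submitters' processing notes. The library kit marks strand, per the labels' protocols, while the TopHat version, the annotation and the counting's strand setting were not given in the sources used here. The extraction text in the labels speaks of cell lines, whereas the tissue labels name liver and tumour. All libraries carry 1 batch label. Rows of reads without a gene, 20.9% to 36.7% of counted reads, were left out. Symbols were matched for 32919 of 37991 gene identifiers.

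Genes were filtered with filterByExpr (minimum count 10, minimum total 15), which left 17558, and tested with the robust quasi-likelihood test of edgeR 4.0.16 in R 4.3.3 over all 6 libraries, with TMM scaling and Benjamini-Hochberg adjustment. The biological coefficient of variation was 0.230. DESeq2 1.42.0 and limma 3.58.1 (voom) were among 19 alternatives, which include leaving out each library. The procedure was checked on simulated counts. Replicates differed beyond counting noise in each group. The numbers of tumour and KAP1-deleted libraries pair the samples, since they come from the same mouse by the labels, so the pairing rests on the labels. Their deviations from the group means correlated at r = 0.185, against 0.386 for control and KAP1-deleted livers. The latter come from different mice, with close mouse codes at each replicate number. For control livers and tumours, which also come from different mice with close codes, r was 0.085.

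Uniqueness of a gene is how many percent of its words of 31 bases, on both strands, no other gene of the reference transcripts holds. Promoter windows were aligned with Biopython 1.88. Counting intervals and limits cover counting error only, and a limit is 3 counts over a group. Members and gene lists were chosen with earlier results of these data known. Named genes are up to 10 per class and direction with the largest change, fewer for the other classes, among genes with a mean of at least 1 CPM, no overlap and no predicted name, plus up to 4 per list with the smallest adjusted p and any cell type marker. Gm11100, Gm13348, Ism1, Gm20319, Notum, Sp5, Tcf7, Tnfrsf19 and Znrf3 were named outside this rule, after their values were seen.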

Additional observations from a re-analysis of the deposited data

Results flagged for a closer look

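Reads that fell in no annotated gene took up 35.0% of the counted reads of tumour 1 and 31.3% of those of tumour 2. Both shares lay above those of the control livers, which were 25.2% and 18.0%, and above those of the KAP1-deleted livers, which were 22.3% and 18.1%. These reads entered none of the comparisons, so the signal they hold was not tested.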

How the results depend on the processing

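With 2 libraries per group, counts of called genes depended on the settings. Of 229 named genes, 143 were called between tumour and control liver, and 74 of these stayed called in all 6 fits with 1 library left out. In KAP1-deleted against control liver 6 of 27 did, and in tumour against KAP1-deleted liver 43 of 112. No named call reversed its direction under any of the 19 alternatives. Tumour and control libraries did not overlap in any of the 57, 1580 and 806 genes of the 3 classes. A reversal between these groups was therefore hardly possible, and its absence is no measure of how firm the directions are. Genes called between tumour and control liver numbered 1103 to 2621 with 1 library left out, those between KAP1-deleted and control liver 30 to 75, and those between tumour and KAP1-deleted liver 640 to 2715. The already present class ranged from 27 to 60 in the same fits, tumour only from 569 to 1776 and undecided from 307 to 1293. Without the filter on low counts the 3 comparisons called 4115, 571 and 3819 genes, and the already present and tumour-only classes held 373 and 2749. With a mean of at least 1 CPM, 34 genes were called in KAP1-deleted liver, and 34 were already present. DESeq2 called 230 there and placed 168 genes in the already present class, against 27 and 27 with limma-voom, with or without the mouse as a correlated block. With unadjusted p-values in the comparisons with KAP1-deleted liver, 405 genes were already present and 91 undecided. The cause of these differences was not tested.

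With the mouse as a replicate block, tumour against KAP1-deleted liver called 4476 genes on 1 residual degree of freedom. The replicate number was also used as a block over all libraries, which left 2 residual degrees of freedom. Controls come from other mice than the libraries of the same number, although their mouse codes are close. With this block 97 genes were called in KAP1-deleted liver and 90 were already present. Tumour against control liver called 3278 genes, against 2443 without the block. The tumour-only class held 2236 genes, against 1580. What mice with close codes share was not tested. Scaling changed the split of tumour calls from 44.2% higher with TMM to 48.1% with DESeq2 size factors and 51.9% with upper-quartile scaling, where higher calls outnumbered lower ones.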

Other observations

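Of 16523 tested genes placed by the GENCODE annotation, 1157 (7%) were on chromosome 4. Of 38 placed genes in the already present class that were higher in tumour, 15 were on chromosome 4, against 21 of 654 tumour-only genes that were higher and 0 of 16 already present genes that were lower. Of 873 tumour-only genes that were lower, 106 were on chromosome 4. Among undecided genes, 37 of 311 that were higher and 44 of 437 that were lower were on that chromosome, and no test of placement was made. The zinc finger genes Zfp981, Zfp987, Zfp988 and Zfp992 are among the genes already higher.

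The summed level of the 6 erythroid markers was 724 and 483 CPM in the controls and 227 and 330.0 CPM in the tumours. Fabp4, a fatty acid binding protein of fat and endothelial cells, was at 6.93 and 9.201 CPM in the control livers, 7.61 and 8.62 in the KAP1-deleted livers and 18.9 and 13.5 in the tumours and rose (adjusted p = 0.0313), a call lost without control liver 1 (0.0797) or tumour 1 (0.152). KAP1-deleted liver 2 held more immunoglobulin RNA than the other 5 libraries, with Ighm at 2.45 and 3.87 CPM in the control livers, 3.75 and 48.4 in the KAP1-deleted livers and 2.80 and 2.21 in the tumours.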
